A study of Mus musculus with 10 samples.

Results

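The binding landscape of Pcl3 in mouse ESCs was described from the 5242 regions that carried a Pcl3-TAP ChIP-seq signal above input DNA, out of 20518 regions in the 4 site lists of the study. Every site of the Pcl3 list was taken, with no selection by strength or position. Pcl3 was pulled down through its TAP tag with the FlagM2 antibody from E14 ESCs of 2 populations, shRNA6 and shRNA7, each of which carried the Pcl3 shRNA of that number and re-expressed a tagged Pcl3 that the shRNA does not recognise. Both ChIP libraries had an input library of their own population, and the authors made 1 site list from the 4 libraries together. The 6 remaining libraries of the 10 came from another line, Suz12 Suz12TAP/+ ESCs made from the BayGenomics gene trap line XG122, with a scramble or a Pcl3 shRNA. Of these, the Suz12-TAP sites of scramble cells (8876 sites) are set beside the Pcl3 sites, and the lists of sites that lost Suz12 or H3K27me3 with Pcl3 shRNA were used as positions only. A difference between the Pcl3 and the Suz12 list cannot be told apart from a difference between the lines, the tagged proteins or the library depths, and the depths are not in the lists. The lists hold no expression values, so the ESC label was not checked against markers. With 1 list for Pcl3 there is no replicate at the level of a site. Intervals in the text are 95% intervals that cover the counting of sites or genes only, and no tests were made.

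Pcl3, the product of Phf19, is a Polycomb-like protein with a Tudor domain and PHD fingers that joins PRC2, the complex of Suz12, Eed and Ezh2. PRC2 places the repressive mark H3K27me3, and in ESCs it occupies mostly CpG islands, stretches of unmethylated CpG-rich DNA that span the starts of many genes, above all those of developmental regulators. In a bulk ChIP, binding in fewer cells and weaker binding in every cell cannot be told apart.

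To show what lies at the middle of Pcl3 sites, broad and narrow, the central 200 bp are given for the site with the smallest p-value in 3 of 4 classes of distance from its center to the nearest protein-coding start, with the widest site taken where p-values tied at 0. Beside them stands, for each of the 4 classes, the strongest site that is at most 1 kb wide and in which at most 10% of the 30-mers recur within 50 kb, a choice made after the values were seen. The limit on repeats passed over 1 site, at Gm10801 (within 1 kb, 750 bp wide, 22.6% of its 30-mers recurring, 2.6 CpG per 100 bp), which had a smaller p-value than the Rarres1 site printed in its place. All sequences are the plus strand of mm9, and capitals mark each CpG.
Hoxa10 site (within 1 kb of a start, 19400 bp wide), chr6:52191201-52191400: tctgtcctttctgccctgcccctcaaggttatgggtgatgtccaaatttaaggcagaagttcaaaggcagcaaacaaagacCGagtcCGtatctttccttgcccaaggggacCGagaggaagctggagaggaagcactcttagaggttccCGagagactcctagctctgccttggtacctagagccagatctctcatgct
Hoxc9 site (1 to 5 kb, 29100 bp wide), chr15:102804101-102804300: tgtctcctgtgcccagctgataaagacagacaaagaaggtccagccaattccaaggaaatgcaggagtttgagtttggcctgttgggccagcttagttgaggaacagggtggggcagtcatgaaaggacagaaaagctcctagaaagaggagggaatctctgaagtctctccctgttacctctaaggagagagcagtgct
Evi5 site (over 50 kb, 7400 bp wide), chr5:108152751-108152950: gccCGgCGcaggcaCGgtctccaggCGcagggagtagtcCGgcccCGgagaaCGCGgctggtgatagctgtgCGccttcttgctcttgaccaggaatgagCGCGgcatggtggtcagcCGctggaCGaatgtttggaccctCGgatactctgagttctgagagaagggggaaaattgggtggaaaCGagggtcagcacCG
Rarres1 site (within 1 kb, 1000 bp wide), chr3:67319051-67319250: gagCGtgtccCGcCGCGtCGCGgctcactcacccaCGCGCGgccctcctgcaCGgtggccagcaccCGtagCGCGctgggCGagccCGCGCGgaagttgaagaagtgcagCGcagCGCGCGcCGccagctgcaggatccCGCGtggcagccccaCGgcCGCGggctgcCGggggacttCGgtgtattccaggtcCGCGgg
3110039M20Rik site (1 to 5 kb, 1000 bp wide), chr12:50495951-50496150: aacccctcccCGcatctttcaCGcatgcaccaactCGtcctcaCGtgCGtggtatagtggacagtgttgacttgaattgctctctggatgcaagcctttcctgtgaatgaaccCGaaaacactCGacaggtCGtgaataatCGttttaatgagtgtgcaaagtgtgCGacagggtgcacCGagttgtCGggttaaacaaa
Cdk8 site (5 to 50 kb, 900 bp wide), chr5:147072651-147072850: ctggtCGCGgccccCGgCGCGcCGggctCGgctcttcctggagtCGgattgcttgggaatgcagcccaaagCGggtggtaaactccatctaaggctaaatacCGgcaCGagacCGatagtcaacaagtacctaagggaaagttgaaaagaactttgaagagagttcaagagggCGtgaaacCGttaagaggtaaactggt
Pxmp3 site (over 50 kb, 800 bp wide), chr3:5860601-5860800: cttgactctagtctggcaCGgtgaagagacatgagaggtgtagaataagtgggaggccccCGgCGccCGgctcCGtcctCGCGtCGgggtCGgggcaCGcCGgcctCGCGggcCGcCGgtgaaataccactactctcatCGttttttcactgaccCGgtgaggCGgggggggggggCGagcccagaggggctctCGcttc
The class is that of the center, so a broad site can count as far from a start that it covers. The middles of the 2 broad Hox sites held 4 and 0 CpG in 200 bp. That of the broad Evi5 site, which lay in an annotated exon without coding sequence, held 16. The middles of the 4 narrow sites held 31, 12, 14 and 20, so the Evi5 value lies within their range. The Rarres1 window held the letters GCGCGC 3 times and the Cdk8 window once (1 match), counted with overlaps. GCGCGC reads the same on both strands.

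Pcl3 sites gathered just downstream of transcription starts. The center of 2652 of the 5242 sites lay within 1 kb of the nearest start of a protein-coding gene of GENCODE vM1, or 50.6% (49.2% to 51.9%). A further 1108 sites (21.1%) lay 1 to 5 kb away, 1074 (20.5%) 5 to 50 kb away and 408 (7.78%, 7.09% to 8.54%) more than 50 kb away. With starts of all gene types, the last share was 4.71%. The median distance was 975.5 bp (898.5 to 1050.5 bp), and 41.3% of the sites covered a start. Of the sites within 5 kb of a start, 2511 of 3760 (66.8%, 65.3% to 68.3%) had their center downstream of it, and the median position was 201.5 bp into the transcribed side. The Suz12 sites lay closer to starts, with 59.99% within 1 kb (59.0% to 61.0%), a median distance of 503.5 bp and 55.1% covering a start. They leaned to the same side, with 71.1% of those within 5 kb centered downstream.

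**Figure D1:**
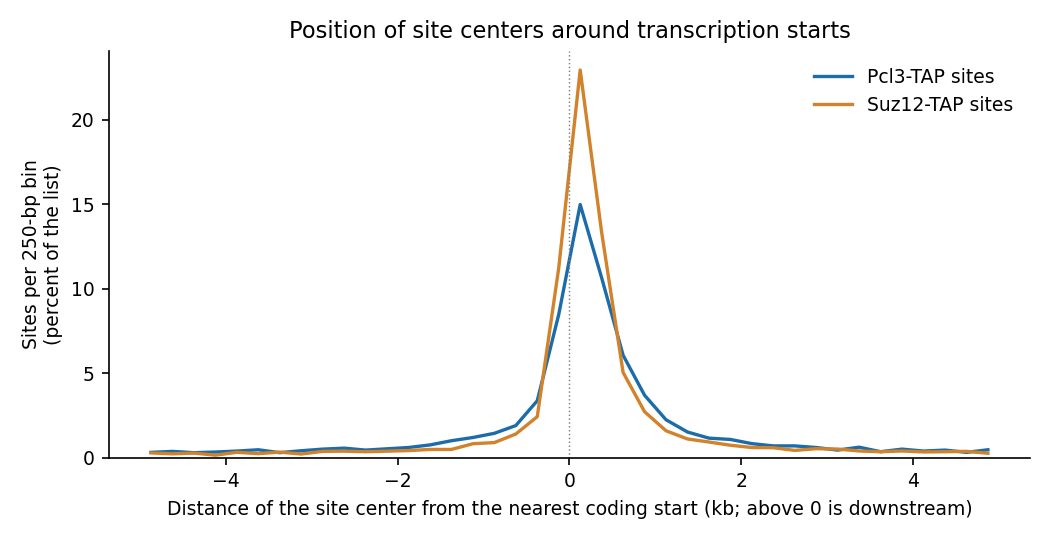
Distance of site centers from the nearest protein-coding start, in kb, against the percent of each list in bins of 250 bp. Both curves peak in the first 250 bp downstream of the start, where 15.0% of the Pcl3 sites and 22.9% of the Suz12 sites fall.

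By annotation, 18.2% of the Pcl3 centers fell in a coding exon, 13.9% in a UTR, 3.15% in another exon, 32.9% in an intron and 31.8% between genes. Among the Suz12 centers, 24.0% lay between genes. Intervals of these shares do not overlap between the lists for coding exons, UTRs and positions between genes.

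CpG content was higher in the sites within 1 kb of a start than in those farther away. In the central 500 bp, Pcl3 sites had a median of 6 CpG per 100 bp (quartiles 2.6 and 9.6), against 4.6 at the starts of all protein-coding genes. Sites within 1 kb of a start had a median of 8.6, and the 3 classes farther away had medians of 3.2, 2.9 and 3. The Suz12 sites had 8.4 within 1 kb, close to the Pcl3 value, and 4.8, 5.2 and 5.4 farther away. A CpG island, taken as 200 bp with 50% GC or more in which CpG reached over 0.6 of the frequency that its C and G content predicts, was found in 77.9% of the Pcl3 sites (76.7% to 79.0%) and 92.3% of the Suz12 sites (91.7% to 92.8%). Under stricter criteria (500 bp, 55% GC or more and a ratio over 0.65, within 1 kb centered on the site) 87.1% of the Pcl3 sites near a start and 37.7% of those over 50 kb from one held an island. Far Suz12 sites held one in 56.1% of cases. GCGCGC stood in the central 500 bp of 48.4% of the Pcl3 sites within 1 kb of a start, and of 17.1%, 19.8% and 19.9% of those in the other classes. It stood in 24.3% of the 500 bp windows around the 5′-most starts of all 22367 protein-coding genes. A match is only a run of letters and does not mark a bound position.

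**Figure D2:**
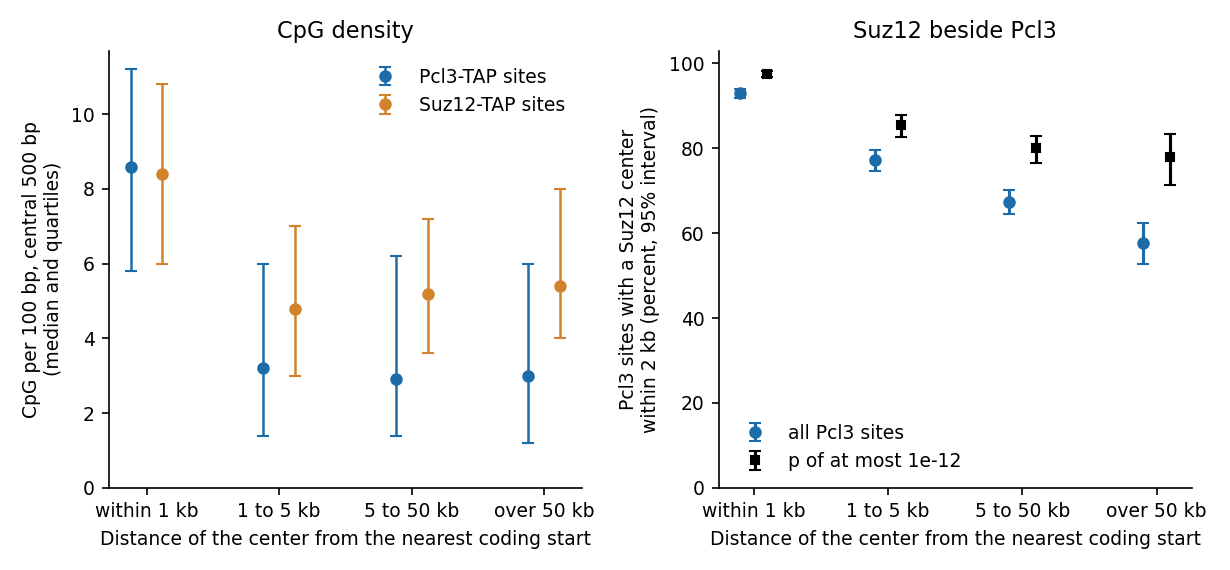
Left, CpG per 100 bp in the central 500 bp (median, bars for the quartiles) of Pcl3 and Suz12 sites by distance to the nearest protein-coding start. Right, percent of Pcl3 sites with a Suz12 center within 2 kb (bars for the 95% Wilson interval), for all sites and for those with p up to 1e-12. Pcl3 sites near starts reach 8.6 CpG per 100 bp and 93.0% with Suz12, and sites over 50 kb away 3 CpG per 100 bp and 57.6%.

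Suz12 stood beside most Pcl3 sites near starts and beside fewer of those far away. A Suz12 center lay within 2 kb of 2466 of the 2652 sites within 1 kb of a start (93.0%, 92.0% to 93.9%), of 77.2% and 67.4% in the next classes, and of 235 of the 408 sites over 50 kb away (57.6%, 52.8% to 62.3%). Over all 4834 sites at most 50 kb away the share was 83.7% (82.6% to 84.7%). The far sites were also narrower (median 650 bp against 900 bp within 1 kb) and had larger p-values (median −log10 p of 10.97 against 17.7). Among the stronger sites, with p up to 1e-12, the shares were 97.5%, 85.5%, 80.0% and 77.9% (71.3% to 83.3%) from the nearest to the farthest class. Far sites with a strict CpG island had Suz12 in 146 of 154 cases (94.8%, 90.1% to 97.3%) and the others in 89 of 254 (35.0%, 29.4% to 41.1%). Near starts the same split gave 93.8% with an island and 87.7% (300 of 342) without one. At islands the intervals of the near and the far share overlap (92.7% to 94.7% near starts), and elsewhere they do not (83.8% to 90.8% near starts). The part of site strength in this was not tested.

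Among the far sites, 299 of 408 (73.3%) had their center between genes and 73 (17.9%) in an intron. Only 30 (7.35%) lay within 1 kb of a start of any annotated gene type. The strongest 3 had p-values written as 0. The first covered chr5:108149151-108156550, 7400 bp wide and 75.7 kb downstream of the nearest start annotated as coding, that of Evi5. Its center lay in an annotated exon without coding sequence, so this site was far from annotated coding starts but inside a gene. The second lay at chr14:62300851-62307050, 6200 bp wide and 77.6 kb downstream of the start of Kcnrg, and the third at chr7:86686651-86691300, 4650 bp wide and 50.8 kb from the start of Rhcg. Each of the 3 had a Suz12 center within 2 kb and a site of Suz12 loss with Pcl3 shRNA. The 5 sites farthest from a start were taken among those with p of at most 1e-12. They were nearest to Neto1 (697 kb upstream), Il1rapl1 (652 kb downstream), Fam86 (629 kb upstream), Lrrtm4 (527 kb downstream) and Chrm3 (481 kb upstream). The centers of the Il1rapl1, Lrrtm4 and Chrm3 sites lay in introns. Of these nearest genes, Neto1, Il1rapl1, Lrrtm4 and Chrm3 encode proteins of the synapse or neurotransmitter receptors, and Fam86 was not counted with them. The functions of the genes nearest to all far sites were not compared. At 4 of the 5 sites a Suz12 center lay within 0.125 kb. The Lrrtm4 site (1050 bp, deposited p-value 2.60e-20, 1 CpG per 100 bp) was the exception, with the nearest Suz12 center 1495 kb away.

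Over the whole lists, the width of Pcl3 sites spread further than that of Suz12 sites at both ends. The median Pcl3 site was 850 bp wide (800 to 850 bp) and the median Suz12 site 1100 bp (1050 to 1100 bp). Among sites with p of at most 1e-12 both medians were 1350 bp (1300 to 1400 bp for Pcl3 and 1350 to 1400 bp for Suz12). Sites under 1 kb made up 56.5% of the Pcl3 list and 44.7% of the Suz12 list. At the other end, 58 Pcl3 sites (1.11%, 0.857% to 1.43%) were 10 kb or wider, against 23 Suz12 sites (0.259%, 0.173% to 0.389%). These 58 sites held 11.1% of the 7.78 Mb that Pcl3 sites covered, and the broadest 834 sites held 50% of it. Of the 58, 96.6% covered a coding start, against 28.9% of the sites under 1 kb. Each of the 323 sites of 4 kb or more held a CpG island. At the middle of a site, the median was 5.2 CpG per 100 bp (quartiles 1.8 and 9) in sites under 1 kb, 8 (4.6 and 10.8) in sites of 1 to 2 kb and 6.3 (4 and 9.8) in those of 2 to 4 kb. It was 4 (2.4 and 6.8) in sites of 4 to 10 kb and 2.6 (1.4 and 5) in wider ones. The highest median stood at 1 to 2 kb, and the quartiles of all classes overlap with those of the sites under 1 kb. Width and p-value ranked the sites almost alike (Spearman's rho 0.985 across 5242 sites of 1 list, a description of how the list was made), so strength adds little to width here.

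**Figure D3:**
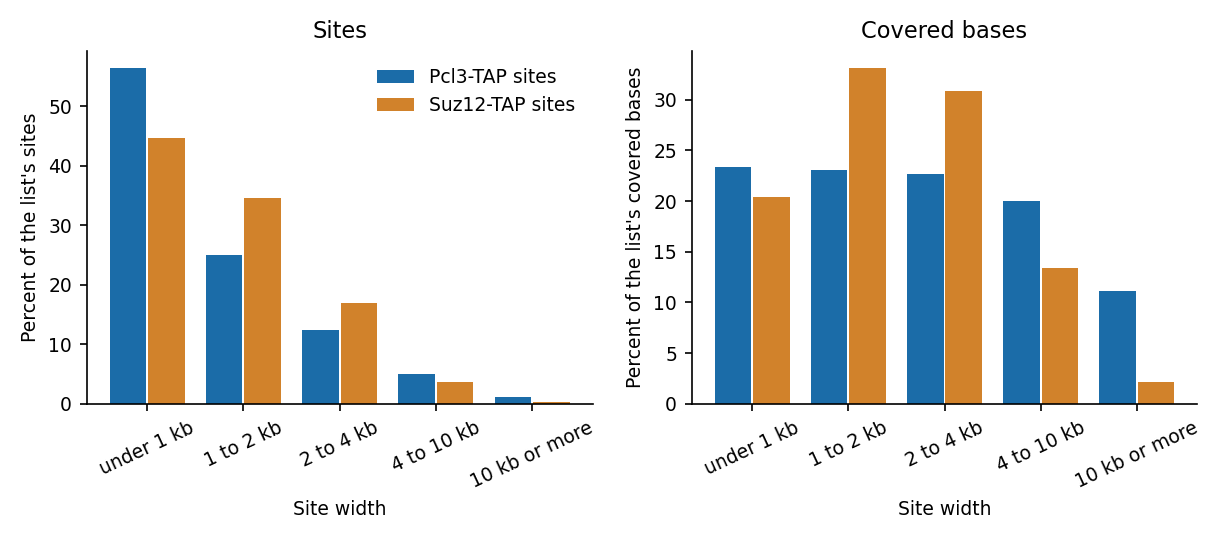
Percent of sites (left) and of covered bases (right) by site width for the Pcl3-TAP and Suz12-TAP lists. Pcl3 sites are more often under 1 kb (56.5% against 44.7%), and those of 10 kb or more hold 11.1% of the bases against 2.12%.

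Most bases of Pcl3 sites lay inside Suz12 sites, and the widest Pcl3 sites met several of them. Of all bases in Pcl3 sites, 81.0% lay inside Suz12 sites. The share was 61.5% in Pcl3 sites under 1 kb and between 86.3% and 88.2% in each wider class. Of the sites under 1 kb, 810 (27.4%) had neither a Suz12 center within 2 kb nor a base in common with a Suz12 site, and of the sites of 4 kb or more, 0. A Pcl3 site of 4 to 10 kb met a median of 1 Suz12 site, and one of 10 kb or more a median of 2.5. The widest Pcl3 site, 81300 bp at chr11:96129151-96210450, covered the starts of Hoxb3, Hoxb4, Hoxb5, Hoxb6, Hoxb7, Hoxb8 and Hoxb9 and contained bases of 24 Suz12 sites, which held 84.0% of it. The next were 29100 bp at Hoxc9 and Hoxc10 (7 Suz12 sites), 24300 bp at Uncx (5), 19700 bp at Six3 (4) and 19400 bp at Hoxa10 and Hoxa11 (7). The other 5 of the 10 widest were 17600 to 18050 bp and lay at Pax3, Pax7, Hmx2 with Hmx3, Nr2e1 with Ostm1, and Lmx1b. Except for Ostm1, which is involved in bone resorption and shares its site with the neural stem cell regulator Nr2e1, these genes encode transcription factors that pattern the embryo. The p-value was written as 0 at all 10. Since ties at 0 were ordered by width, the strongest sites of the distance classes up to 50 kb are mostly the widest by construction. Outside the 10 widest, the 3 first of each class held the Lhx5 site (17500 bp), within 1 kb of the start, and a site of 11000 bp at chr11:96031651-96042650, 18.5 kb upstream of Hoxb13 in the class of 5 to 50 kb, of which 66.8% lay inside 4 Suz12 sites.

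Whole genes lay inside single Pcl3 sites. This held for 118 protein-coding genes, of which all 118 also had Suz12 at a start and 73 (61.9%) belonged to the lists described below, against 18.1% of all genes with Pcl3. They were short, with a median length of 2691.5 bp against 15427 bp for all protein-coding genes. The longest were Hoxb3 (23360 bp), Pitx1 (11139 bp, in a site of 13450 bp), Skor1 (10792 bp), Tbx2 (9398 bp, in a site of 13850 bp) and Hoxb6 (9094 bp). Pitx1 and Tbx2 are regulators of limb development, and Skor1 is a transcriptional corepressor of the nervous system. Since a short gene fits in a site more easily than a long one, length enters this count. The lists were chosen with earlier results of these data known, so the share in the lists is a description only. Hoxb3 to Hoxb9 all lay in a single site, so the 118 genes are not independent.

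A Pcl3 site within 2 kb of a transcript start was found at 2789 of 22367 protein-coding genes, 12.5% (12.04% to 12.9%). By the same rule Suz12 was found at 24.6%. Of the 2789 genes, 2609 (93.5%) also had Suz12 there, and of the 5499 genes with Suz12, 47.4% had Pcl3. The share of genes with Pcl3 ranged widely with the CpG density of the promoter. Genes were split into 10 equal groups by CpG around the 5′-most start. In the group with the fewest CpG, 1.12% had Pcl3, and in the group with the most, 26.96%. The share was 8.45% in the fourth group and stayed at 14.4% to 19.2% from the fifth to the ninth. Suz12 stood at 2.06% of genes in the group with the fewest CpG and at 46.2% in the group with the most. Among genes with Suz12, the share that also had Pcl3 moved less. It was 52.2% in the group with the fewest CpG, which held 46 such genes, 34.2% in the second and 54.9% in the group with the most, with 38.9% to 50.0% between these. A promoter CpG island (strict criteria) was present at 80.8% of the Pcl3 genes and 77.2% of the Suz12 genes. Of the 11425 genes with such an island, 19.7% had Pcl3, and of the 10942 without one, 4.90%.

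All 40 homeobox genes listed for the Hox clusters, which set position along the body axis, had Pcl3 at a start (100%, 91.2% to 100%). Of all protein-coding genes, 12.5% had it. The 40 genes shared 46 sites, 22 of which had a p-value written as 0, so neighbouring Hox genes are not independent. A site of 4 kb or more stood at 11 of 12 Hoxa, 9 of 10 Hoxb, 7 of 9 Hoxc and 8 of 9 Hoxd genes, whereas 1.31% of all protein-coding genes had one. The widest site at a gene had a median of 12550 bp in Hoxa, 81300 bp in Hoxb, 9600 bp in Hoxc and 10550 bp in Hoxd. The strongest were those of Hoxa10, Hoxa11 and Hoxa9 (1 site of 19400 bp), Hoxb3, Hoxb4 and Hoxb5 (81300 bp), Hoxc10 and Hoxc9 (29100 bp) with Hoxc6 (14700 bp), and Hoxd10 and Hoxd9 (12650 bp) with Hoxd11 (12050 bp).

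Other homeobox genes were covered nearly as often. Each of the 12 LIM homeobox genes, which specify neuron types and limb pattern, and each of the 9 Dlx and Msx genes, which act in the face, limb and forebrain, had Pcl3. The strongest were Lmx1b (17600 bp), Lhx5 (17500 bp) and Lhx2 (14550 bp), and Dlx2 (10450 bp), Msx1 (9300 bp) and Dlx1 (9150 bp). Brain patterning homeobox genes had Pcl3 at 34 of 35 starts, with Uncx, Hmx2 and Hmx3 strongest and Phox2a, a regulator of autonomic neurons, without a site within 2 kb. Homeobox genes of mesoderm and gut had it at 20 of 21, with Barx1 (13550 bp), Cdx2 (10050 bp) and Pdx1 (6800 bp) strongest and Meox1 without. The Pax genes had it at 8 of 9, led by Pax3, Pax7 and Pax2 (17450 bp), and Pax4 had neither Pcl3 nor Suz12. Among the sine oculis and Iroquois homeobox genes, which act in eye and muscle and in neural patterning, 10 of 12 had Pcl3, led by Six3, Six2 (7400 bp) and Irx5 (4950 bp). Six5 and Six4 had Suz12 (2050 bp and 800 bp) but no Pcl3 site. Of the 14 Nkx genes, 11 had Pcl3, with Nkx2-2 (12650 bp), Nkx2-3 (9050 bp) and Nkx6-1 (8050 bp) strongest. Among the others, Nkx6-3 and Nkx2-6 had neither factor.

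Developmental transcription factor families outside the homeobox group ranged from 83.3% to 51.2% of members with Pcl3. The Zfp genes given further on had 6.40%, and all protein-coding genes 12.5%. Pcl3 stood at 5 of 6 Gata genes, led by Gata3 (17350 bp), Gata6 (9150 bp) and Gata2 (8400 bp). Gata1, the erythroid factor on the X chromosome, had neither Pcl3 nor Suz12. It stood at 17 of 21 neural bHLH genes, which drive neuron formation, led by Neurog1 (12750 bp), Olig2 (11450 bp) and Neurod2 (6750 bp). The 4 without it, Nhlh1, Neurod6, Ascl3 and Neurod4, also lacked Suz12 and had 0.8 to 1.6 CpG per 100 bp around the 5′-most start. The T-box genes had Pcl3 at 12 of 16, led by Tbx2, Tbx1 (11800 bp) and Tbx4 (7900 bp), and not at Tbx19, Tbx6, Tbx10 and Tbx22. The Sox genes had it at 15 of 19, led by Sox14 (9800 bp), Sox9 (5550 bp) and Sox6 (5050 bp). The 4 Sox genes without it were Sox8, which had Suz12 (2350 bp), and Sox12, Sox15 and the pluripotency factor Sox2, which had none, although 5 Pcl3 sites had Sox2 as their nearest coding gene. Forkhead genes (22 of 43), Zic and Gli genes (7 of 12) and mesodermal bHLH genes (10 of 19) followed. Foxb1 (14000 bp), Foxf2 (13350 bp) and Foxa2 (13150 bp) led the forkhead genes, Zic1 with Zic4 (1 site of 9850 bp) and Zic2 (5550 bp) the Zic and Gli genes, and Hand2 (10950 bp), Tal1 (4950 bp) and Hand1 (4100 bp) the mesodermal bHLH genes. Gli1 and Gli2, the effectors of Hedgehog signalling, had Suz12 but no Pcl3 site. Glis2 and Glis3 had neither.

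**Figure D4:**
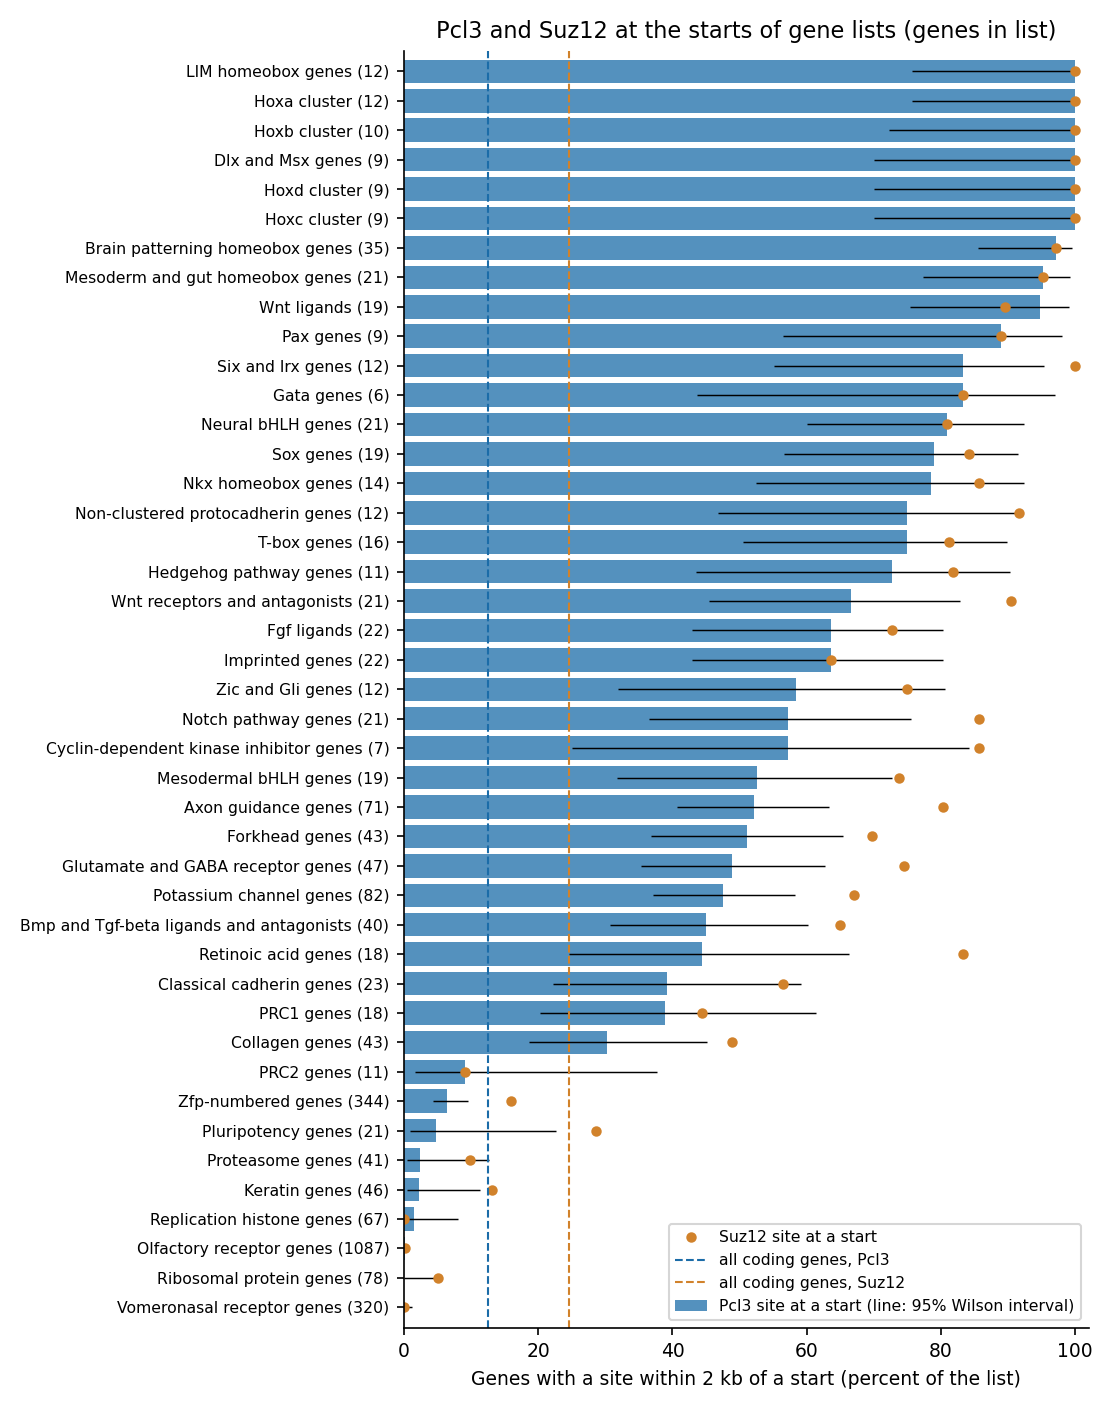
Percent of each gene list with a Pcl3 site within 2 kb of a start (blue bars, lines for the 95% Wilson interval) and with a Suz12 site (orange points), with the share over all protein-coding genes as dashed lines (12.5% and 24.6%). Homeobox lists reach 78.6% to 100%, and ribosomal protein, olfactory and vomeronasal receptor genes stay at or near 0.

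Pcl3 stood at nearly all Wnt ligand genes and at part of the other signalling genes, against 12.5% of all protein-coding genes. It was present at 18 of 19 Wnt ligand genes (94.7%, 75.4% to 99.1%), led by Wnt5a (8450 bp), Wnt11 (6400 bp) and Wnt1 (4850 bp). Wnt8b had no Pcl3 and no Suz12 site, and Wnt8a had Pcl3 (950 bp, deposited p-value 2.50e-17) with no Suz12 site at its start. The Wnt receptors and antagonists had it at 14 of 21 (66.7%, 45.4% to 82.8%), in sites of at most 2650 bp, led by Fzd8, Fzd2 (2500 bp) and Fzd4 (1500 bp), while Suz12 stood at 19 of the 21. The intervals of the Wnt lists overlap. Of the Hedgehog genes 8 of 11 had Pcl3 (72.7%, 43.4% to 90.3%). All 3 ligand genes were among them, with Shh in 10900 bp, Ihh in 4650 bp and Dhh in 3200 bp, and so was the receptor gene Ptch1 (2750 bp). Cdon and Sufu were among those without it. Pcl3 stood at 14 of 22 Fgf genes, led by Fgf9 (7100 bp), Fgf8 (3450 bp) and Fgf3 (2950 bp). It stood at 18 of 40 Bmp and Tgf-beta ligand and antagonist genes, led by Gdf6 (4750 bp), Fst (5100 bp) and Bmp6 (3250 bp). In the Notch pathway 12 of 21 genes had it, led by the ligand genes Dll4 (7650 bp) and Dll1 (5450 bp) and by Lfng (2450 bp), which modifies Notch.

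Among 18 retinoic acid genes, Suz12 stood at 15 and Pcl3 at 8. The 3 genes of retinoic acid breakdown, Cyp26b1 (8200 bp), Cyp26a1 (5400 bp) and Cyp26c1 (1800 bp), had Pcl3, and the synthesis genes were split. Aldh1a2 (2550 bp) and Aldh1a3 (650 bp) had Pcl3, Rdh10 had Suz12 only and Aldh1a1 had neither. Of the receptor genes, Rarg had a site of 650 bp (deposited p-value 8.60e-11), Rara, Rarb, Rxra and Rxrg had Suz12 only, and Rxrb had neither. Genes of this list were few, and the share of its Suz12 genes with Pcl3 (53.3%) is close to the 47.4% over all genes with Suz12.

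Genes of axon guidance, neurotransmission and cell adhesion had Pcl3 at 39.1% to 75% of the members of each list. Among all protein-coding genes the share was 12.5%. Pcl3 stood at 37 of 71 axon guidance genes, 39 of 82 potassium channel genes, 23 of 47 glutamate and GABA receptor genes, 9 of 12 non-clustered protocadherin genes and 9 of 23 classical cadherin genes. The strongest were Ntng2, Sema5b and Ntn1 (4050 to 4800 bp), Kcnk9 (4750 bp), Kcna1 (3300 bp) and Kcnk13 (2500 bp), Grid1 (4350 bp), Grm4 (3100 bp) and Grm8 (3300 bp), Pcdh7 (7050 bp), Pcdh10 (6400 bp) and Pcdh17 (5450 bp), and Cdh11 (4000 bp), Cdh22 (2500 bp) and Cdh2 (3500 bp). Of the potassium channel genes with Suz12, 70.9% had Pcl3, and of the axon guidance genes with Suz12, 64.9%. Over all genes with Suz12 the share was 47.4%. The widest site at a gene had a median of 1150 bp in the potassium channel list and 1550 bp in the axon guidance list. Of 43 collagen genes 13 had Pcl3 (30.2%, 18.6% to 45.1%), led by Col2a1 of cartilage (4700 bp), Col14a1 (3100 bp) and Col12a1 (3150 bp).

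By the widest single site at a gene, Pcl3 was narrower than Suz12 at most genes. It was wider at the Hox clusters and part of the other patterning genes. At the 2609 genes with both, the widest Pcl3 site was a median of 0.667 times as wide as the widest Suz12 site (0.647 to 0.681), and it was the wider of the pair at 449 genes (17.2%, 15.8% to 18.7%). At the Hox clusters it was the wider at 11 of 12 Hoxa, 10 of 10 Hoxb, 9 of 9 Hoxc and 9 of 9 Hoxd genes, with median ratios of 1.49, 7.24, 2.23 and 2.01. Without the Hox clusters it was the wider at 410 of 2569 genes (16.0%). Neighbouring Hox genes shared sites, so their ratios are not independent. The site of 81300 bp alone covered the starts of 7 Hoxb genes and met 24 Suz12 sites, which held 84.0% of it. The ratio sets single sites against each other, so 1 Pcl3 site over several Suz12 sites raises it. Among lists with at least 5 genes that had both, the others with a median ratio above 1 were Dlx and Msx (1.44), Pax (1.32), T-box (1.18), LIM homeobox (1.13), neural bHLH (1.09), forkhead (1.09), Gata (1.08), Nkx (1.04) and brain patterning homeobox genes (1.03). Patterning lists with a ratio below 1 were mesoderm and gut homeobox genes (0.957), sine oculis and Iroquois genes (0.909, wider at 4 of 10), mesodermal bHLH (0.906), Zic and Gli (0.804) and Sox genes (0.783). The ratio was 0.835 at Wnt ligands, 0.660 at axon guidance genes, 0.556 at Bmp and Tgf-beta genes and 0.525 at potassium channel genes. The part of library depth in these ratios was not tested. The ratios of lists are therefore to be read beside the 0.667 of all genes.

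**Figure D5:**
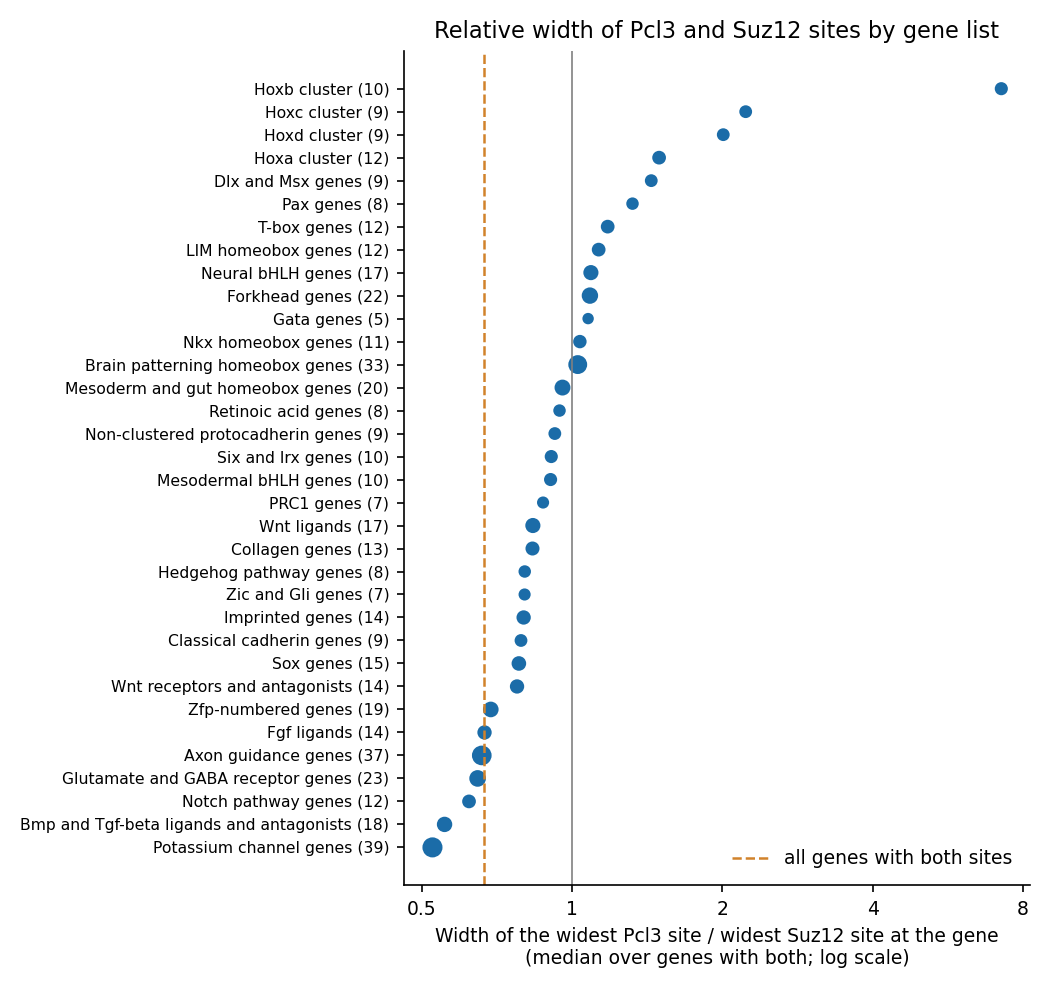
Median over genes of the width of the widest Pcl3 site divided by that of the widest Suz12 site (log scale), for lists with at least 5 genes that have both, with the number of such genes in parentheses and in the size of the point. The Hox clusters lie between 1.49 and 7.24, and the median over all 2609 genes with both is 0.667.

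Among the genes of Polycomb itself, 1 of 11 PRC2 genes had a Pcl3 site at a start (9.09%, 1.62% to 37.7%), close to the 12.5% of all protein-coding genes, and it was Phf19, which encodes Pcl3. The site lay at chr2:34768701-34769600 (900 bp, deposited p-value 2.09e-16), with its center 345.5 bp downstream of the start, in an intron, and a Suz12 center 75 bp away. Its central 200 bp are shown because the tagged protein stood at its own gene.
Phf19 site, chr2:34769051-34769250, mm9, plus strand, CpG in capitals: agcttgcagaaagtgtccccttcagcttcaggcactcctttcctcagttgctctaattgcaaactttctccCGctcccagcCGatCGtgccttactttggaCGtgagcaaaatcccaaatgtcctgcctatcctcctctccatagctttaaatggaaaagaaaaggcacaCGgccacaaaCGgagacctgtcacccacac
The window held 6 CpG. Suz12, Eed, Ezh1, Ezh2, Jarid2, Aebp2, Mtf2, Phf1, Rbbp4 and Rbbp7 had no Pcl3 and no Suz12 site at a start. The tagged Pcl3 was expressed from a construct, and the part of construct DNA in the reads at Phf19 was not tested. Of 18 PRC1 genes 7 had Pcl3 (38.9%, 20.3% to 61.4%). Among them, Cbx8 (12050 bp), which encodes a reader of H3K27me3, had a p-value written as 0, and Bmi1, a core subunit, had 3300 bp (deposited p-value 2.26e-245). Cbx2 (1600 bp), Pcgf5 (700 bp), Yaf2 (600 bp) and Phc2 (400 bp) had shorter ones.

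For ribosomal protein, replication histone, keratin and chemoreceptor genes the interval of the share with Pcl3 lay below the 12.5% of all protein-coding genes, and for pluripotency and proteasome genes it includes that share. Of 21 pluripotency genes 1 had a site at a start (4.76%, 0.846% to 22.7%), Esrrb (3650 bp, deposited p-value 7.90e-264). Pou5f1, Nanog, Zfp42, Klf2, Klf5 and Sall4 had neither Pcl3 nor Suz12, and Klf4, Prdm14, Nr5a2, Utf1 and Nr0b1 had Suz12 only. Pcl3 stood at 0 of 78 ribosomal protein genes (up to 4.69%) and at 1 of 67 replication histone genes (1.49%, 0.264% to 7.98%), Hist3h2a (550 bp, deposited p-value 5.67e-11). It stood at 1 of 41 proteasome genes (2.44%, 0.432% to 12.6%), the immunoproteasome gene Psmb8 (650 bp, deposited p-value 7.73e-12). The 5′-most starts of these 3 lists were CpG-rich, with medians of 7.2, 6.4 and 7 CpG per 100 bp in that order, while those of the Hox clusters, all with Pcl3, had medians of 3.8 (Hoxb) to 6.2 (Hoxc) and those of the Wnt ligand genes 10.6. Large families of CpG-poor genes were nearly empty as well. Pcl3 stood at 1 of 1087 olfactory receptor genes (Olfr94, 1350 bp, deposited p-value 2.23e-43), 0 of 320 vomeronasal receptor genes and 1 of 46 keratin genes (2.17%, 0.385% to 11.3%; Krt8, 400 bp, deposited p-value 8.32e-08). Of 344 genes named Zfp with a number, 22 (6.40%, 4.26% to 9.49%) had Pcl3, led by Zfp503 (8800 bp), Zfp316 (3150 bp) and Zfp536 (5650 bp).

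Growth regulators fell between these extremes. Of 7 cyclin-dependent kinase inhibitor genes, 4 had Pcl3. Cdkn1c had 2600 bp (deposited p-value 7.44e-170), Cdkn2a 1850 bp (deposited p-value 2.70e-97), Cdkn2c 2500 bp (deposited p-value 1.64e-61) and Cdkn2b 1000 bp (deposited p-value 1.41e-23). Cdkn1a and Cdkn1b had Suz12 only, and Cdkn2d had neither. Of 22 imprinted genes, expressed from 1 parental copy, 14 had Pcl3 (63.6%, 43.0% to 80.3%) and the same number Suz12. Igf2 (4600 bp), Dio3 (5150 bp) and Cdkn1c were the strongest. Sgce and Peg10 shared 1 site of 1000 bp.

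Of the 2789 genes with Pcl3 at a start, 87.6% had there a site at which Suz12 fell with Pcl3 shRNA. A site at which H3K27me3 fell stood at 11.1%. The same shares over all genes with Suz12 were not computed here, so these 2 shares do not show by themselves whether Pcl3 genes stand out. By region, the paper reports that Suz12 and H3K27me3 fell more often where Pcl3 bound than where it did not. The share with H3K27me3 loss varied with the chromosome and between lists, and the differences between lists were not tested. A site of H3K27me3 loss stood at 88 of the 226 Pcl3 genes of chromosome 11 (38.9%, 32.8% to 45.4%) and at 221 of the 2563 on the other chromosomes (8.62%, 7.60% to 9.77%). The shares with Suz12 loss were 91.6% and 87.2%. By list, a site of H3K27me3 loss stood at 6 of 12 Hoxa, 7 of 10 Hoxb, 0 of 9 Hoxc and 1 of 9 Hoxd genes. It stood at 7 of the 18 Wnt ligand genes with Pcl3 and at 0 of the 22 forkhead genes. Among other lists it stood at 4 of 9 Dlx and Msx, 5 of 14 imprinted and 2 of 37 axon guidance genes with Pcl3. The Hoxb cluster lies on chromosome 11, and the 7 Wnt genes comprise all 4 on that chromosome and 3 of 14 elsewhere. The interval of the latter share (21.4%, 7.57% to 47.6%) includes the 8.62% of all Pcl3 genes elsewhere. Of the 22 forkhead genes, 1 lies on chromosome 11. Suz12 loss stood at each of the 40 homeobox genes listed for the Hox clusters, the 22 forkhead genes and 17 of the 18 Wnt genes. The Suz12 and H3K27me3 lists come from the same 2 cell populations, and neighbouring Hox genes share sites.

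Pcl3 was found at RNA genes too. A site stood within 2 kb of a start at 247 of 1273 lincRNA genes (19.4%, 17.3% to 21.7%), 166 of 2572 processed transcripts (6.45%), 59 of 1577 miRNA genes (3.74%) and 56 of 5201 pseudogenes (1.08%). It stood at 5 of 1552 snoRNA genes (0.322%) and 5 of 1423 snRNA genes (0.351%). Of all protein-coding genes, 12.5% had one. Many lincRNA starts neighbour coding starts. Of the 483 lincRNA genes whose starts lay more than 5 kb from any coding start, 48 (9.94%) had Pcl3, and of the 1234 such miRNA genes, 22 (1.78%).

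Sites came in groups. Assigned to the coding gene with the nearest start, the 5242 sites fell to 3143 genes, of which 950 (30.2%, 28.6% to 31.9%) had 2 or more and 158 (5.03%) had 5 or more. With sites under 1 kb apart merged, 17.1% of the genes had 2 or more. The 950 genes held 58.2% of the sites. Gaps to the next site were under 1 kb in 24.7% of cases, while the median gap was 109550 bp. The most sites, 23, went to Sfi1, which encodes a centrin-binding protein, and lay within 65.2 kb near the beginning of chromosome 11 (3030601 to 3095800), with a median width of 750 bp, 1 CpG per 100 bp and Suz12 within 2 kb of 19. Bcor, the gene of a corepressor in a variant PRC1, followed with 20 sites in 84.1 kb of the X chromosome, 16 of them with Suz12. The nuclear receptor gene Nr2f2 had 15 sites, the heart and limb regulator Hand2 14 and the forebrain regulator Otx2 13. En2, Hoxc4, Nr2f1, Pax2, Sfmbt2 and Wnt10a had 12 each.

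These groups ranged widely in their share with Suz12, and the differences were not tested. Over all 5242 Pcl3 sites, 962 (18.4%) had no Suz12 center within 2 kb. Suz12 stood within 2 kb of 11 of 12 sites at Nr2f1 and at Pax2, 10 of 12 at En2 and at Wnt10a, 10 of 15 at Nr2f2, 8 of 14 at Hand2, 7 of 12 at Hoxc4, 5 of 13 at Otx2 and 1 of 12 at Sfmbt2. Sfmbt2, a Polycomb gene itself, had 12 sites in 44.8 kb of chromosome 2 (10253151 to 10297950), 1 of 7150 bp with a p-value written as 0 and a median of 600 bp. Sequence that recurred within 50 kb, as a share of 30-mers, made up at most 11.03% of any Sfmbt2 site and at most 9.74% of any Sfi1 site. Among all 5242 sites, 7 were made up of such sequence by more than 50%. Sequence repeated farther away was not examined.

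A minority of Pcl3 sites, most of them narrow, had no Suz12 site. By the rule of centers within 2 kb, the strongest sites without Suz12 were those of Uncx, Lmx1b and Lhx5, but 95.1%, 96.0% and 98.6% of their bases lay inside Suz12 sites, since a center rule misses broad sites. Of the 962 sites without a Suz12 center within 2 kb, 55 (5.72%) shared a base with a Suz12 site, and 907 (17.3% of all Pcl3 sites) did not. The strongest of the 907, picked by this second rule after the values were seen, was nearest to Nr2f2 (chr7:77486801-77490050, 3250 bp, deposited p-value 2.73e-109), 17.1 kb downstream of its start and 2.68 kb from the nearest Suz12 center. It is printed as the strongest site apart from Suz12.
Nr2f2 site, chr7:77488326-77488525, mm9, plus strand, CpG in capitals: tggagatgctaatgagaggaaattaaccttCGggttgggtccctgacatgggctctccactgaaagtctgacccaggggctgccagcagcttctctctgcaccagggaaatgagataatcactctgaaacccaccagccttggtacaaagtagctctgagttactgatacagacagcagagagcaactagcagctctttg
The window held 1 CpG in 200 bp. The next 4 were nearest to Foxd1 (1500 bp), Hoxa13 (2250 bp), Sfmbt2 (2500 bp) and A930004D18Rik (1700 bp), with the nearest Suz12 center 3.6, 2.73, 17.2 and 3 kb away.

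Pcl3 sites were spread over all chromosomes, with 1.30 to 3.35 sites per Mb on the autosomes, the most on chromosomes 11 and 19. The X chromosome had 0.648 per Mb (108 sites) and 5.04% of its coding genes had Pcl3, against 7.82% to 16.2% on the autosomes. The Y chromosome had 8 sites of 400 to 750 bp, all between 2853151 and 2892800, with Suz12 within 2 kb of 1 of them. Per Suz12 site there were 0.443 Pcl3 sites on chromosome 11, the lowest value among the autosomes, and 0.724 on chromosome 13, the highest. The X chromosome, with 167 Suz12 sites, had 0.647 and so lay within the range of the autosomes.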

How the data were processed

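The 4 site lists of the study were used. Reads of 30 nucleotides had been placed on mm9 by the authors with Bowtie (tool and build per the submitters' processing notes, which give no version), and only unique placements were kept. After background was made equal between a ChIP library and its input, each window of 400 bp received a Skellam p-value, windows under 1e-07 that overlapped were fused, and the fused site received a new p-value. Per the file headers, each deposited site has a position and 1 p-value, and 9 Pcl3 sites have a recomputed p-value above the cutoff. Unique alignment leaves out repeated sequence, and joining lengthens strong sites. The lists give no read counts, and the library totals were not used here, so the precision of a single site is unknown. The smallest p-values stand as 0 in the list.

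Coordinates are 1-based mm9. Genes and starts came from GENCODE vM1, sequence from the mm9 assembly. A gene counted when a site shared a base with the 2 kb on either side of any of its transcript starts. Shares have Wilson intervals, and medians have intervals from binomial ranks. The members and the 43 gene lists were chosen with earlier results of these data known. Named were, per list, up to 3 bound genes with the smallest p-values (ties by width) and the unbound members where these were 5 or fewer, the genes of the 10 widest sites, the 10 genes with the most sites (11 with ties), the 3 strongest sites in each distance class and the 5 farthest sites with p of at most 1e-12. Other members are named for their roles after their values were seen. Of the sequences under the rule, 1 (at Uncx), annotated both as UTR and as coding, is not printed. Another sequence and some genes under the rule are not reported here. Functions were tested on simulated sites. Tables were computed with pandas 2.3.3, numpy 2.4.6 and scipy 1.17.1 under Python 3.11.15 and drawn with matplotlib 3.10.9. The alternatives were other gene types, starts, distances, p-values and island criteria, merged sites, lists without X and Y, and, added after the data were seen, a list without locally repeated sites.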

Additional observations from a re-analysis of the deposited data

How the results depend on the processing

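Of 32 recomputed values, 10 stayed inside the 95% interval of the value given in the report and 22 moved outside it, with no test on either side. The share of Pcl3 sites within 1 kb of a start became 53.2% with starts of all gene types, 41.5% with the 5′-most start of each gene, 58.1% with the distance from the site edge, 53.6% at p of at most 1e-12 and 57.9% with sites under 1 kb apart merged. The share over 50 kb away became 4.71%, 11.2% and 5.66% with all gene types, the 5′-most start and the p-value limit. The share of genes with Pcl3 at the start became 13.3% with a window of 5 kb, 11.6% with the 5′-most start and 8.86% with the p-value limit. The median width became 1350 bp with the p-value limit and 1050 bp with merging. The share of genes with 2 or more sites became 26.9% with all gene types, 22.5% with the p-value limit and 17.1% with merging, and it was 30.3% without sites of mostly locally repeated sequence, an alternative added after the data were seen. The share with a CpG island became 62.3% under stricter criteria, 88.6% with the p-value limit and 69.6% in the central 400 bp of every site. The share of far sites with Suz12 became 52.0% for a shared base, 65.0% for centers within 5 kb and 77.9% with the p-value limit. For the p-value limit, merging and other starts the change follows from which sites or starts are counted. No paired analysis was possible because the authors made 1 Pcl3 list from both populations, and for the same reason no library could be left out. Without read counts, differences at single sites were not detectable.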
